A study of Mus musculus with 8 samples.

Results

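Mir23a and Mir27a, from a cluster on mouse chromosome 8, and Mir23b and Mir27b, from a paralogous cluster on chromosome 13, were followed in input RNA and in AGO2 immunoprecipitates (IP) of spleen B cells. They are 4 of 2202 microRNA (miRNA) features in the count tables, 560 of which had a count in any library, and were found by exact match of their mm10 coordinates to RefSeq genes. All 8 libraries came from Ago2HA/HA mice, in which both copies of the gene for AGO2, a protein that carries miRNAs to their targets, encode an HA epitope that an anti-HA antibody precipitates. There were 4 groups of 2 libraries: IP of proliferating cells, input of proliferating cells, IP of resting cells and input of resting cells. Resting B cells were obtained by removing CD43-bearing cells, and proliferating ones by activating such cells in culture, with an agent that the labels do not name. Cells from animals without the epitope gave no RNA after the pull-down, so there is no such library and each IP is set against its input. The ages of the animals, and whether a group's libraries stem from different animals, are not stated. The p-values therefore reflect only how far these libraries spread, which may be technical. That spread was estimated mostly across all tested features.

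miRNA genes of a cluster are transcribed together, and each hairpin is then cut out and trimmed to mature products, one of which is loaded into an Argonaute protein and finds its targets mainly through its seed, bases 2 to 8. The miR-232724 clusters are known in mouse haematopoiesis, where the chromosome 8 cluster favours myeloid over B lymphoid development, and in mouse T cells, whose effector functions they restrain. In human B lymphoma cells MYC is known to lower miR-23a and miR-23b, which target glutaminase, and miR-27 is known in human cells to target FOXO1, a transcription factor of resting lymphocytes.

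The mature products that the results turn on are given here 5′ to 3′ with the seed in capitals, from RefSeq (GRCm38.p6, the assembly of mm10). The 3p products show how alike the copies are and which genes share a seed, and the 5p products of the miR-27 hairpins show the other arm that the same rows count.
miR-23a-3p, chr8:84208563-84208583, plus strand: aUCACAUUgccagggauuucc
miR-27a-3p, chr8:84208727-84208747, plus strand: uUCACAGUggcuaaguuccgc
miR-27b-3p, chr13:63300760-63300780, plus strand: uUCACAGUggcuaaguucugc
miR-27a-5p, chr8:84208685-84208706, plus strand: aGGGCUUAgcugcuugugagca
miR-27b-5p, chr13:63300718-63300739, plus strand: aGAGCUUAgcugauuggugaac
miR-23b-3p is only named, and its seed was not compared. The miR-27 3p products of the 2 clusters share their seed and differ at 1 of 21 positions, C19U counted from the 5′ end with miR-27a first, so their first 18 bases are identical. The miR-27 5p products match at 14 of 22 positions and have different seeds. Among the mature products that were compared, no further one had the seed of miR-23a-3p or of the miR-27 3p products.

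Mir23a (ENSMUSG00000065611.1) lies at chromosome 8, 84208518 to 84208592, and Mir27a (ENSMUSG00000065444.1) at 84208672 to 84208758, with 80 nt from the end of the one to the start of the other and no other RefSeq gene overlapping either. Mir23b (ENSMUSG00000065599.2) lies at chromosome 13, 63300484 to 63300557, and Mir27b (ENSMUSG00000065475.2) at 63300712 to 63300784, 155 nt apart and within the span of Aopep, an aminopeptidase gene. All 4 are on the plus strand. The last genes of the clusters, Mir24-2 and Mir24-1, and the genes annotated opposite them, Mir3074-2 and Mir3074-1, had no count in any library. Each of these overlaps its partner on the opposite strand, and how the counting treated such reads is not given in the sources used here, so their levels are unknown.

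Library totals ran from 795229 to 1376045 counts in the proliferating IPs, 213418 to 276287 in the proliferating inputs, 788869 to 1681148 in the resting IPs and 358764 to 386598 in the resting inputs, and 3 counts in a library correspond to between 1.78 and 14.1 CPM, the scaled count unit used below. Within groups, the log2 levels of both libraries had r of 0.960 to 0.981 across features. The tables hold only miRNA genes, so B cell surface markers could not be checked. The state labels were checked on Mir155, an activation miRNA, at 10.8% to 15.3% of the counts of proliferating libraries and 0.836% to 1.21% of resting ones, and on Mir150, a miRNA of resting lymphocytes, at 1.68% to 3.84% of proliferating and 14.1% to 30.7% of resting libraries. Among markers of other cells, the myeloid Mir223 took 0.0695% to 0.339% of proliferating libraries, 1.45% and 2.94% of the resting IPs and up to 2.86% of the resting inputs. The endothelial Mir126a, which lies opposite Mir126b, took 0.0889% to 0.176% of the proliferating IPs, 0.0626% to 0.0820% of the proliferating inputs, 0.00613% to 0.0147% of the resting IPs and 0.0173% to 0.0253% of the resting inputs. The 5 epithelial markers, of the miR-200 family, took 0.0380% to 0.0759% of proliferating and 0.109% to 0.209% of resting libraries. The other lists were lower, with erythroid markers at 0.000218% to 0.0259%, stromal ones at 0.000469% to 0.00809% and the hepatocyte Mir122 at 0.000509% to 0.00796% over all libraries. The erythroid share covers 2 of the 3 genes listed, Mir144 and Mir486. Mir451a was not found among the named features, so the share is a lower bound. The 4 muscle markers had no count, and 2 of the 6 neural markers had 4 counts in all.

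Levels are given as CPM, counts scaled to a common library total with edgeR's TMM factors, which align the bulk of the features between libraries. Mir23a, whose product is one of the miRNAs lowered by MYC, stood at 4506 and 4111 CPM in the proliferating IPs, 1250 and 1196 CPM in the proliferating inputs, 1599 and 1150 CPM in the resting IPs, and 1190 and 1466 CPM in the resting inputs. The proliferating IPs were apart from all other libraries, and the other 3 groups overlapped. Mir23b, its paralog, was also highest in the proliferating IPs, with 1610 and 1372 CPM in the proliferating IPs, 564 and 410 CPM in the proliferating inputs, 570 and 452 CPM in the resting IPs, and 420 and 658 CPM in the resting inputs. Again the proliferating IPs stood apart and the other 3 groups overlapped.

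Mir27a, transcribed with Mir23a, had another order of levels. It had 826 and 861 CPM in the proliferating IPs, 1400 and 1336 CPM in the proliferating inputs, 393 and 498 CPM in the resting IPs, and 2555 and 1775 CPM in the resting inputs. The 4 groups did not overlap, with the order resting input, proliferating input, proliferating IP and resting IP from the highest to the lowest. In comparisons of 2 groups, 61.2% to 78.5% of tested features had libraries that did not overlap. The share of features that separate all 4 groups was not counted. Mir27b, transcribed with Mir23b, had 8480 and 7068 CPM in the proliferating IPs, 8492 and 6902 CPM in the proliferating inputs, 9604 and 7094 CPM in the resting IPs, and 6992 and 7551 CPM in the resting inputs. Its 4 groups all overlapped. A lower CPM can come from fewer cells that hold a miRNA or from less of it per cell, which cannot be told apart in bulk libraries, and a CPM is relative to the other miRNAs of its library.

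**Figure D1:**
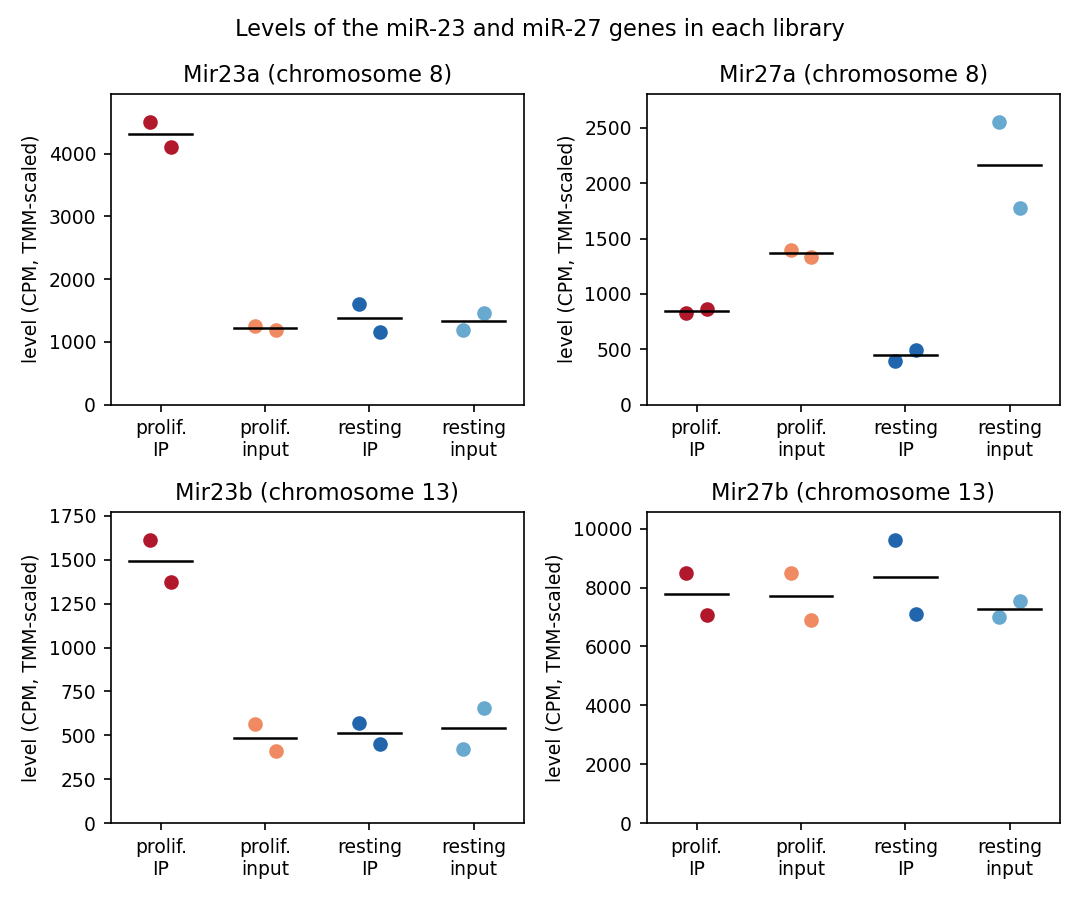
Level of each gene (vertical axis, TMM-scaled CPM, from 0) in the 8 libraries, with 1 point per library and a line at the mean of the 2 libraries of a group. Mir23a and Mir23b are highest in the proliferating IPs (4506 and 4111 CPM, and 1610 and 1372 CPM), Mir27a is lowest in the resting IPs (393 and 498 CPM), and the groups of Mir27b overlap.

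In proliferating cells both miR-23 genes were over-represented with AGO2 and neither miR-27 gene was. Mir23a averaged 4309 ± 279 CPM in the IP and 1223 ± 38.3 CPM in the input (mean ± SD, n = 2 here and below), a 3.52-fold rise (log2 change of 1.82 with an SE of 0.30, edgeR adjusted p = 7.8e-06). Mir23b averaged 1491 ± 169 CPM in the IP and 487 ± 109 CPM in the input, a 3.05-fold rise (log2 change of 1.61 with an SE of 0.34, edgeR adjusted p = 2.5e-04). They were the features with the 11th and 16th largest rise of the 219 tested. Mir27a, at 844 ± 24.8 CPM in the IP and 1368 ± 44.9 CPM in the input, did not pass (log2 change of -0.70 with an SE of 0.31, edgeR adjusted p = 0.094), although both IP libraries were below both inputs. Mir27b did not pass either, at 7774 ± 999 CPM in the IP and 7697 ± 1124 CPM in the input (log2 fold change 0.01, edgeR adjusted p = 0.97, 95% interval -0.51 to 0.53). Thus 2 of the 4 genes were called, both higher, where 26.9% of all tested features were called, 13.2% higher and 13.7% lower. For 3 of the 4 genes the IP and input libraries did not overlap, and they did not overlap for 61.2% of tested features either. With library totals in place of TMM factors both miR-27 genes were called lower, Mir27a at -1.30 (edgeR adjusted p = 0.0039) and Mir27b at -0.59 (edgeR adjusted p = 0.039), and with upper-quartile factors Mir27a was, at -0.84 (edgeR adjusted p = 0.042). The split of all calls, 29 higher and 30 lower, was 16 higher and 60 lower with library totals. The endothelial Mir126a also rose here, by 1.48 on the log2 scale (SE 0.37, edgeR adjusted p = 0.0021), and its part in the miR-23 values was not tested. The myeloid Mir223 fell (-1.06, SE 0.31, edgeR adjusted p = 0.0091). So did the hepatocyte Mir122 (-2.43, SE 0.88, edgeR adjusted p = 0.033), on 10 and 7 counts in the IPs and 22 and 13 in the inputs. The 5 epithelial markers did not pass (median -0.56).

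In resting cells 1 of the 4 genes differed between IP and input, Mir27a, which fell. It averaged 446 ± 74.0 CPM in the IP and 2165 ± 552 CPM in the input, 4.86-fold less (log2 change of -2.28 with an SE of 0.32, edgeR adjusted p = 4.2e-07), and was the 24th lowest of 219 changes. As a share of all counts, it took 0.0313% (95% exact interval 0.0287 to 0.0341) and 0.0472% (0.0425 to 0.0522) of the resting IPs, against 0.254% (0.238 to 0.272) and 0.187% (0.174 to 0.201) of the resting inputs. These intervals are Clopper-Pearson intervals and cover counting error only. The other 3 genes did not pass and their libraries overlapped. Mir23a averaged 1374 ± 318 CPM in the IP and 1328 ± 195 CPM in the input (log2 fold change 0.05, edgeR adjusted p = 0.90, 95% interval -0.54 to 0.64). Mir23b (log2 fold change -0.08, edgeR adjusted p = 0.89, 95% interval -0.74 to 0.59) and Mir27b (log2 fold change 0.20, edgeR adjusted p = 0.59, 95% interval -0.32 to 0.72) had intervals that include 0. Of all features 28.8% were called, 13.2% higher and 15.5% lower (29 and 34 features; upper-quartile factors gave 33 and 23), and 68% had libraries that did not overlap. Of the 5 epithelial markers 3 rose in the resting IP and none fell (median 2.08), and the stromal Mir10b rose (2.38, edgeR adjusted p = 0.025). Mir223 (0.35), Mir126a (-0.85), Mir122 (1.97) and the erythroid Mir144 (-0.03) did not pass.

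The change from input to IP was then compared between the states. It was larger in proliferating than in resting cells for 3 of the 4 genes, where 17.4% of features were called, 9.59% in this direction and 7.76% in the other. For Mir23a the 2 log2 changes were 1.82 in proliferating and 0.05 in resting cells, a difference of 1.77 (SE 0.41, edgeR adjusted p = 0.0025). For Mir23b they were 1.61 and -0.08, a difference of 1.69 (SE 0.47, edgeR adjusted p = 0.010). For Mir27a they were -0.70 and -2.28, a difference of 1.59 (SE 0.44, edgeR adjusted p = 0.0089), with both changes below 0. For Mir27b the difference was -0.19 (SE 0.36, edgeR adjusted p = 0.79, 95% interval -0.92 to 0.55).

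The Mir23a difference was called in every alternative and without any single library, but the other 2 calls were not. With library totals the differences were 1.34 for Mir23b (edgeR adjusted p = 0.054) and 1.19 for Mir27a (edgeR adjusted p = 0.058), and with upper-quartile factors 1.44 (edgeR adjusted p = 0.077) and 1.27 (edgeR adjusted p = 0.053). Each of the 2 calls was also lost without any one of 3 single libraries, where the log2 difference was 1.33 to 1.48 for Mir23b (without resting input replicate 2, proliferating IP replicate 1 or proliferating input replicate 2) and 1.30 to 1.62 for Mir27a (without resting input replicate 1 or either proliferating input). Over all features 21 calls were higher and 17 lower. Library totals gave 7 and 20, and upper-quartile factors 7 and 15. Mir126a differed in the same direction as the miR-23 genes, by 2.34 (SE 0.53, edgeR adjusted p = 0.0020), and Mir223 in the other, by -1.40 (SE 0.43, edgeR adjusted p = 0.018). Mir122 differed by -4.40 (SE 1.28, edgeR adjusted p = 0.013), on 3 and 4 counts in the resting inputs and 10 and 7 in the proliferating IPs. Of the 5 epithelial markers 2 differed, both in the direction of Mir223. What the cells of all these markers add to the result was not tested.

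**Figure D2:**
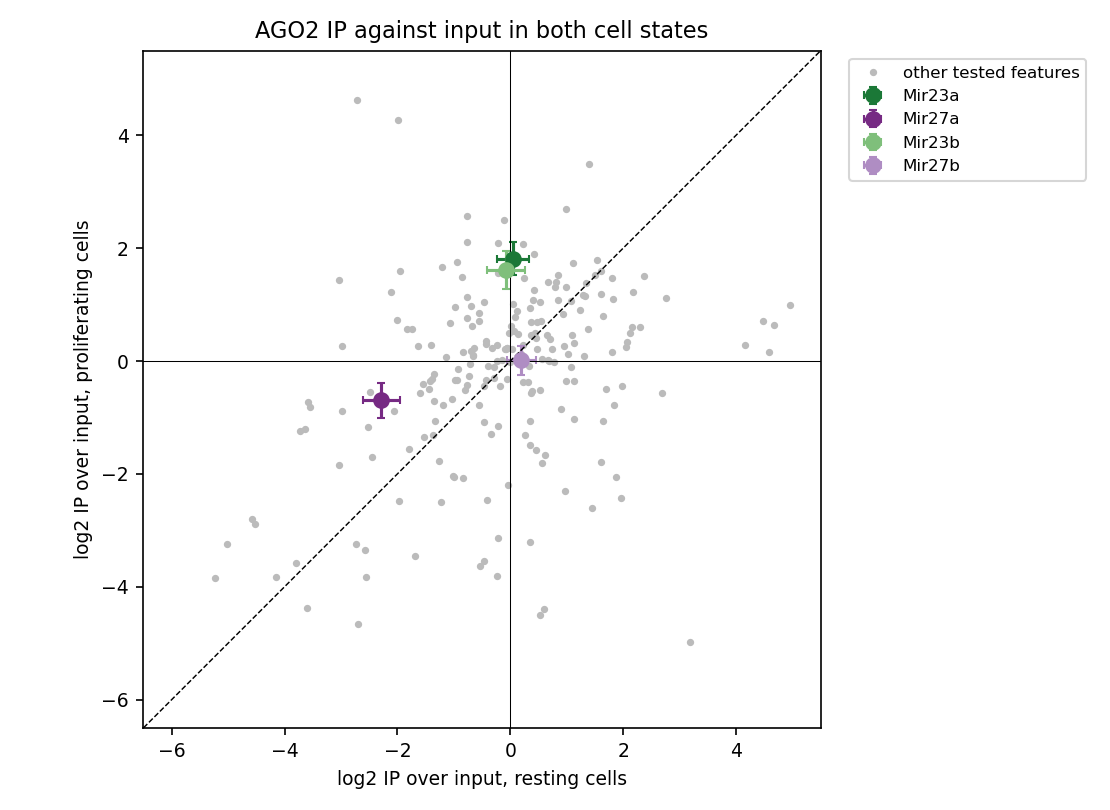
Log2 fold change of IP over input in resting cells (horizontal axis) and in proliferating cells (vertical axis) for the 219 tested features, with the 4 genes in colour with their SE and the dashed line at equal change. Mir23a and Mir23b lie well above the line near 0 on the horizontal axis, Mir27a lies above it with both changes below 0 (-2.28 and -0.70), and Mir27b lies near the origin.

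In the input, before AGO2 was selected, 0 of the 4 genes differed between proliferating and resting cells by edgeR, where 49.3% of features did, 26% higher and 23.3% lower in proliferating cells (57 and 51 features). Library totals turned that split into 75 and 37, upper-quartile factors into 39 and 59. Mir27a came nearest, at 1368 ± 44.9 CPM in proliferating and 2165 ± 552 CPM in resting cells (log2 fold change -0.66, SE 0.31, unadjusted p = 0.037, edgeR adjusted p = 0.074), with both proliferating inputs below both resting ones, as 78.5% of features had libraries that did not overlap. It was the single gene of the 4 with an unadjusted p under 0.05, none passed by DESeq2, and edgeR called it lower with upper-quartile factors (-1.01), when the inputs were fitted alone (-0.68), and without proliferating IP replicate 1 or either resting IP (-0.87 to -0.68). With library totals the change was -0.30 (edgeR adjusted p = 0.38), and without resting input replicate 1 it was -0.38 (edgeR adjusted p = 0.49). Mir23a (-0.12, 95% interval -0.71 to 0.47), Mir23b (-0.14, 95% interval -0.82 to 0.53) and Mir27b (0.08, 95% interval -0.44 to 0.60) had log2 changes with intervals that include 0. Among markers of other cells, Mir223 (-3.18, edgeR adjusted p = 1.9e-10) and Mir144 (-3.42, edgeR adjusted p = 9.6e-05) were lower in the proliferating input. So were 2 of the 5 epithelial markers, while Mir126a (1.41, edgeR adjusted p = 0.0024) and Mir122 (2.54, SE 0.96, edgeR adjusted p = 0.027) were higher. Mir122 had 3 and 4 counts in the resting inputs, and the erythroid markers together 5 and 6 in the proliferating inputs. What the cells of these markers add to the input levels of the 4 genes was not tested.

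In the IP, 3 of the 4 genes were higher in proliferating than in resting cells, where 28.3% of features were higher, 23.7% lower and 52.1% called in all. Mir23a averaged 4309 ± 279 CPM in the proliferating and 1374 ± 318 CPM in the resting IP (log2 change of 1.65 with an SE of 0.30, edgeR adjusted p = 8.8e-06). Mir23b averaged 1491 ± 169 CPM and 511 ± 83.3 CPM in these groups (log2 change of 1.54 with an SE of 0.33, edgeR adjusted p = 1.3e-04). Mir27a averaged 844 ± 24.8 CPM in the proliferating and 446 ± 74.0 CPM in the resting IP (log2 change of 0.92 with an SE of 0.31, edgeR adjusted p = 0.011). The Mir27a call was lost with upper-quartile factors (0.26, edgeR adjusted p = 0.46), with relative-log-expression factors (0.75, edgeR adjusted p = 0.051), without a low-count filter (0.69, edgeR adjusted p = 0.10), without proliferating IP replicate 1 (0.70, edgeR adjusted p = 0.075) and without resting IP replicate 1 (0.67, edgeR adjusted p = 0.10). Mir27b did not pass (log2 fold change -0.10, edgeR adjusted p = 0.75, 95% interval -0.62 to 0.42). The libraries of the 3 called genes did not overlap, as for 74.9% of features. Over all features 62 calls were higher and 52 lower, and upper-quartile factors gave 38 and 75. Mir126a was also higher in the proliferating IP (3.74, SE 0.41, edgeR adjusted p = 2.8e-10) and Mir223 lower (-4.59, SE 0.35, edgeR adjusted p = 3.7e-14). All 5 epithelial markers were lower there, among them Mir141 (-2.46), Mir200c (-1.74) and Mir200b (-4.03), and so were the erythroid Mir144 (-5.58) and Mir10b (-1.77). The erythroid markers together had 3 counts in each proliferating IP. The part of the cells of these markers in the values of the 4 genes was not tested.

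**Figure D3:**
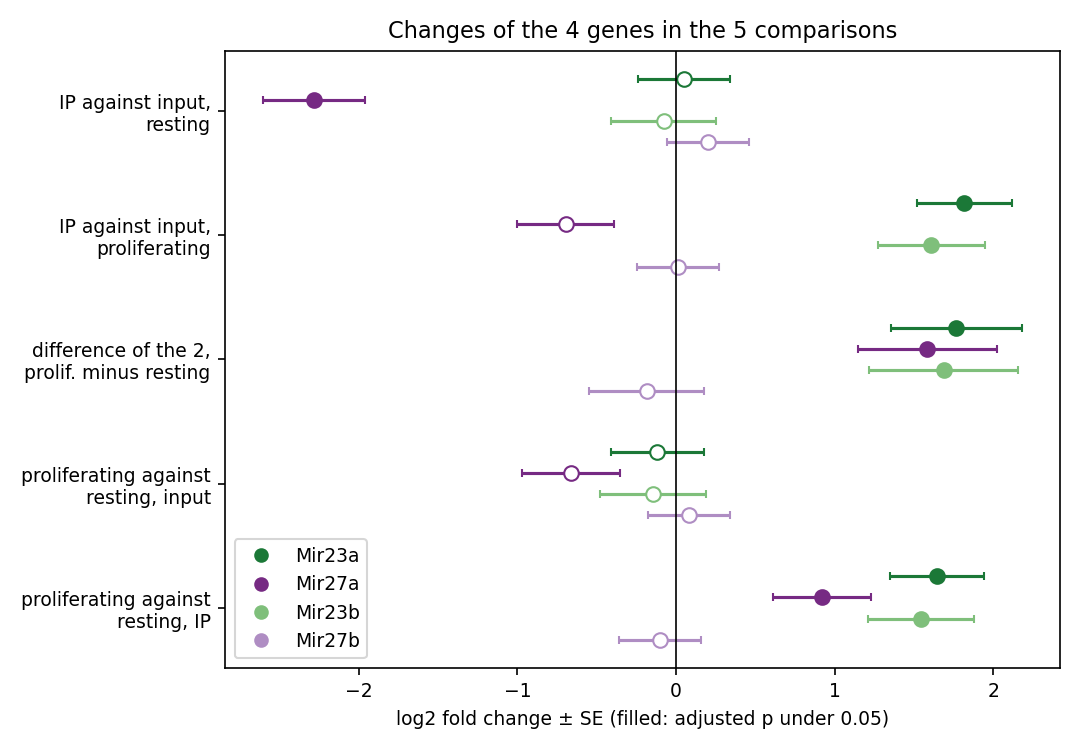
Log2 fold change (horizontal axis, bars are SE) of each gene in the 5 comparisons, filled where the edgeR adjusted p is under 0.05. The points of Mir23a and Mir23b lie side by side in every row, Mir27a falls in the resting IP (-2.28), and Mir27b has no filled point.

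Ratios of 2 genes within a library do not depend on its scaling. A ratio between different sequences also carries how well each is captured, so only its differences between libraries are compared. The 8 libraries held 0.183 and 0.210 Mir27a counts per Mir23a count in the proliferating IPs, 1.12 and 1.12 in the proliferating inputs, 0.246 and 0.433 in the resting IPs, and 2.15 and 1.21 in the resting inputs. Every IP was below every input. The log2 ratio differed between IP and input by -2.51 in proliferating and by -2.31 in resting cells.

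For the chromosome 13 pair, the libraries held 5.27 and 5.15 Mir27b counts per Mir23b count in the proliferating IPs, 15.0 and 16.8 in the proliferating inputs, 16.8 and 15.7 in the resting IPs, and 16.7 and 11.5 in the resting inputs. Here the proliferating IPs alone stood apart. The log2 ratio differed between IP and input by -1.61 in proliferating and by 0.23 in resting cells.

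Between paralogs, Mir23a made up 73.7% and 75.0% of the Mir23a and Mir23b counts in the proliferating IPs, 68.9% and 74.5% in the proliferating inputs, 73.7% and 71.8% in the resting IPs, and 73.9% and 69.0% in the resting inputs. The groups overlapped. Mir27a made up 8.88% and 10.9% of the Mir27a and Mir27b counts in the proliferating IPs, 14.2% and 16.2% in the proliferating inputs, 3.93% and 6.56% in the resting IPs, and 26.8% and 19.0% in the resting inputs. Its 4 groups did not overlap, and how often ratios of other features separate in this way was not counted. Counts that the aligner or counter could not place between near-identical copies are not separable here, and the miR-27 rows hold both arms, so the arm behind the low Mir27a share is unknown.

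Each ratio was tested for IP against input within states and for proliferating against resting cells within IP and input (2-sided exact permutation test, 36 arrangements, 8 comparisons). The design cannot reach 0.05, since the smallest p it allows is 0.056. That value was reached for Mir27a over Mir23a in IP against input (mean log2 difference -2.41, replicate SD 0.42, adjusted p = 0.15) and in proliferating against resting cells (-0.63, adjusted p = 0.15), and for Mir27a over Mir27b in IP against input (-1.58, replicate SD 0.38, adjusted p = 0.15), all from the exact permutation test. Mir23a over Mir23b differed by 0.14 between IP and input and by 0.07 between states, less than its replicate SD of 0.20 (exact permutation p = 0.39 and 0.56). Mir27b over Mir23b differed by -0.69 between IP and input and by -0.72 between states (exact permutation p = 0.28 for each, adjusted p = 0.44) as means of unlike values, -1.61 in proliferating and 0.23 in resting cells for the first, and -1.64 in IP and 0.20 in input for the second. Mir27a over Mir27b differed by 0.15 between states (exact permutation p = 0.78), the mean of 1.02 in the IP and -0.71 in the input.

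**Figure D4:**
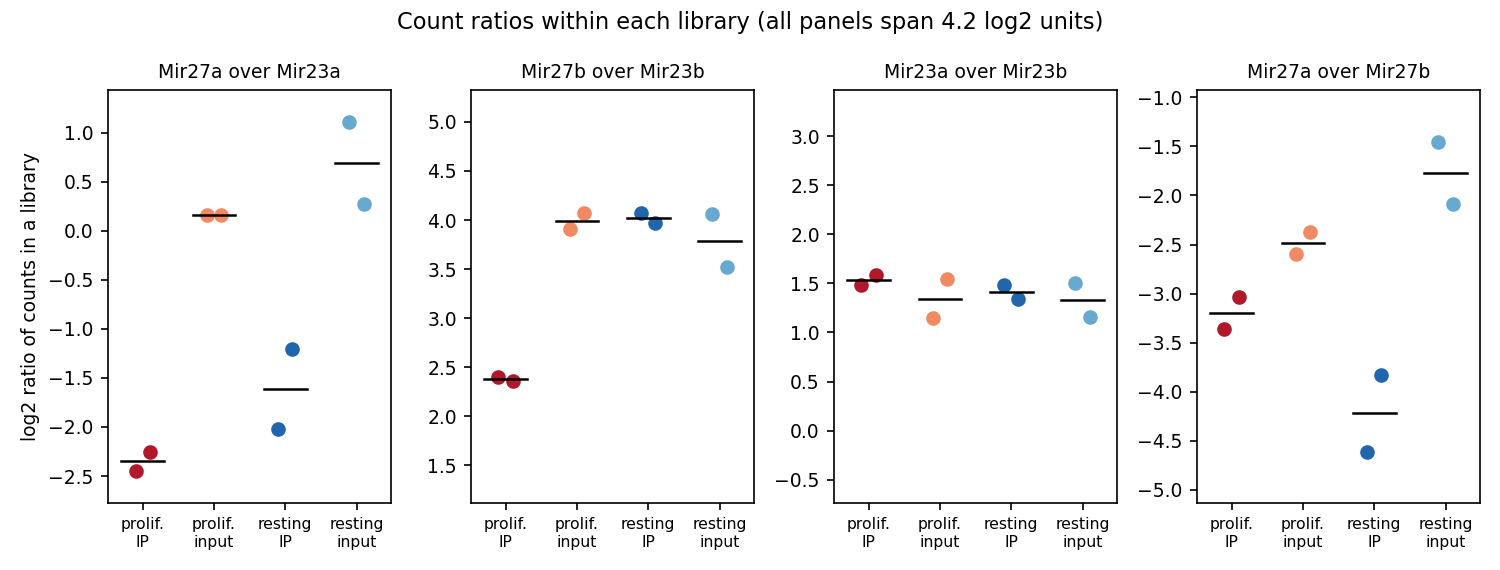
Log2 ratio of the counts of 2 genes within each library (vertical axes, all spanning 4.2 log2 units), with 1 point per library and a line at the group mean. Mir27a over Mir23a is lower in all 4 IPs than in all 4 inputs, Mir27b over Mir23b is low in the proliferating IPs alone, Mir23a over Mir23b overlaps between groups, and Mir27a over Mir27b separates all 4 groups.

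Sums over paralogs do not depend on how reads were split between copies, but they miss any reads that the counting dropped because they matched both copies. The miR-23 sum was higher in the proliferating IP than in its input, at 5800 ± 448 CPM and 1710 ± 147 CPM (log2 change of 1.70 with an SE of 0.26, edgeR adjusted p = 4.5e-04), and did not pass in resting cells (0.04, edgeR adjusted p = 0.93). Its change from input to IP differed between states by 1.66 (SE 0.37, edgeR adjusted p = 0.0099), and the sum was higher in the proliferating than in the resting IP by 1.49 (edgeR adjusted p = 2.6e-04). The miR-27 sum, of which Mir27b is the larger part, was called in none of the 5 comparisons by edgeR with TMM factors, with log2 changes of -0.15 to -0.06 and no unadjusted p under 0.05. By cluster, the chromosome 8 sum rose in the proliferating IP (0.86, edgeR adjusted p = 0.013) and fell in the resting IP (-0.86, edgeR adjusted p = 0.010), each against its input, while the chromosome 13 sum did not pass in either (0.06 and 0.25). With library totals the chromosome 8 call in proliferating cells was lost (0.38, edgeR adjusted p = 0.17) and the miR-27 sum there was called lower (-0.68, edgeR adjusted p = 0.020). The miR-23 difference between states was lost without either proliferating input or resting input replicate 2, and the chromosome 8 call was lost in each state without either input of that state.

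Likeness in log2 level over the 8 libraries was ranked among the tested features with a RefSeq name, 213 of 219. The one most like Mir23a was Mir23b (Pearson r = 0.98), followed by Mir221 (0.91), whose human counterpart restrains a cell cycle inhibitor, and Mir101b (0.90). Those most like Mir23b were Mir23a, Mir101b (0.87) and Mir221 (0.85). Mir27a was most like Mir1249 (0.98), Mir331 (0.97) and Gm24148 (0.89), which fell in the resting IP with log2 changes of -3.54, -3.72 and -5.03 against input. They were picked by likeness to Mir27a over these same libraries, so their fall is not a separate result. Mir27b was most like Mir425 (0.72), Mir676 (0.64) and Mir146 (0.63). With its own cluster partner the level of Mir23a had r = -0.25 and that of Mir23b r = 0.23. The libraries share their group in pairs, so these values describe 4 group levels more than 8 separate points.

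A list of other miRNA genes of families known to be lowered by MYC in B lymphoma cells, among them let-7, miR-26, miR-29, miR-30, miR-34, miR-146 and miR-150, was set beside the miR-23 genes. Of its 34 symbols 32 were in the tables and 27 were tested. In the input 4 were higher and 11 lower in proliferating cells, with a median log2 change of -0.60, against 0.04 over all tested features. That is 55.6% of the list called, where 49.3% of all features were (26% higher and 23.3% lower). In the IP 3 were higher and 16 lower in proliferating cells, with a median of -1.59, against 0.21 over all tested features, so 70.4% of the list was called, where 52.1% of all features were (28.3% higher and 23.7% lower). Its most abundant members were Mir150 (-3.54 in input and -2.77 in IP, both edgeR adjusted p under 0.05), Mir146 (0.44 and -0.24, edgeR adjusted p = 0.091 and 0.35) and Mir26b (-0.54 and -2.19, both under 0.05). Mir23a and Mir23b stood at -0.12 and -0.14 in the input, neither called (edgeR adjusted p = 0.75 and 0.73), and at 1.65 and 1.54 in the IP. The 3 higher members of the list in the IP were Mir34a (3.20), Mir195a (1.74) and Mir98 (1.28), named after their values were seen. From input to IP, 1 of the 27 rose and 7 fell in proliferating cells (median -0.49, against 0.11 over all tested features), 29.6% of the list and near the 26.9% of all features called. In resting cells 8 rose and 5 fell (median 0.45, against -0.05), 48.1% of the list, where 28.8% of all features were called.

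Mir128-1, whose product has the miR-27 seed shifted by 1 base and is abundant in brain, was tested as a relative. It passed in none of the 5 comparisons, with log2 changes of -0.62 to 0.16, and its copy Mir128-2 had 28 counts in all and was not tested.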

How the data were processed

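Small RNA libraries (QIAseq miRNA kit, single-end) were aligned by the authors with STAR 2.7.9a to mm10 and handled with SAMtools 1.15, as named in the submitters' processing notes. What was deposited are raw counts by Ensembl miRNA gene, from deduplicated alignments per the file headers. How reads were deduplicated and counted, with which strand setting, and what became of multi-mapping reads is not given in the sources used here. Resting and proliferating cells are in separate tables with the same 2202 features, of which 1179 were named by exact match of coordinates to RefSeq genes. Column names match sample titles. The counts of the 2 libraries of a group differed by more than counting noise (chi-square at least 8.56 times its degrees of freedom).

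The filter filterByExpr (minimum count 10) kept 219 features, all 4 genes among them. A quasi-likelihood model of edgeR 4.0.16 (R 4.3.3) was fitted with TMM factors (0.797 to 1.34) and 4 groups to all 8 libraries together (4 residual and 36.6 prior degrees of freedom). Of 5 contrasts each was tested 2-sided with Benjamini-Hochberg adjustment over the 219 features at 0.05. SE is the absolute log2 fold change over the square root of the F statistic, and 95% intervals use the t distribution with the model's degrees of freedom. With 36.6 prior against 4 residual degrees of freedom, the p-values of single genes depend mostly on that prior. Sums replaced their rows in the table before a separate fit of the same kind, with 9.68 prior degrees of freedom for the paralog sums and 8.64 for the cluster sums. These priors come from almost the same features and still exceed the 4 residual degrees of freedom, so the sums are no independent check. The prior fell from 36.6 although few rows changed, so it is unstable, and the p-values and 95% intervals of single genes depend on it. On simulated data for the resting IP against input with 219 features, 74.6% of 4-fold and 37.9% of 2-fold changes were called, and 0.417% of unchanged features. The rule for which features to name was the 4 genes, the 3 tested features with a RefSeq name most correlated with each, and the 3 most abundant of each list. Mir34a, Mir195a and Mir98 fall outside it and were named after their values were seen. The genes, lists and tests were chosen with earlier results of these data known. Alternatives were other scaling factors, no low-count filter, DESeq2 1.42.0, only the groups compared, the replicate number as a block, each library left out, and, for ratios, 1 count added.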

Additional observations from a re-analysis of the deposited data

Results flagged for a closer look

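For 3 of the 4 genes the change from input to IP differed between proliferating and resting cells by an interaction term of the edgeR model, where 17.4% of all features were called. The log2 difference was 1.77 for Mir23a (changes of 1.82 and 0.05, edgeR adjusted p = 0.0025), 1.69 for Mir23b (1.61 and -0.08, edgeR adjusted p = 0.010) and 1.59 for Mir27a (-0.70 and -2.28, edgeR adjusted p = 0.0089), in each case with the proliferating cells first. The Mir23b and Mir27a calls were lost with library totals (1.34 and 1.19), with upper-quartile factors (1.44 and 1.27) and, for each, without any one of 3 single libraries.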

How the results depend on the processing

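Log2 changes are named by comparison. The Mir23a and Mir23b rises in the proliferating IP, against input and against the resting IP, the Mir23a difference between states and the Mir27a fall in the resting IP kept direction and call in all alternatives run. Against TMM factors, library totals moved the median of all features by -0.24 (resting IP over input), -0.61 (proliferating IP over input), -0.36 (difference), 0.36 (input) and 0.00 (IP), and upper-quartile factors by 0.16, -0.13, -0.30, -0.36 and -0.67. Relative-log-expression factors moved the IP median by -0.13.

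With library totals the resting IP over input was -0.21 for Mir23a, -0.053 for Mir27b, -0.24 for the miR-23 sum and -0.071 for the chromosome 13 sum. The proliferating IP over input was -1.30 for Mir27a, -0.59 for Mir27b, -0.68 for the miR-27 sum, 0.38 for the chromosome 8 sum and -0.43 for the chromosome 13 sum. The difference was 1.34 for Mir23b and 1.19 for Mir27a. The input change was 0.23 for Mir23a, 0.20 for Mir23b, 0.22 for the miR-23 sum and 0.29 for the miR-27 sum, and the IP change of the chromosome 13 sum was 0.060. With upper-quartile factors the resting IP over input was 0.048 for Mir23b, and the proliferating one -0.84 for Mir27a and -0.11 for Mir27b. The difference was 1.44 for Mir23b and 1.27 for Mir27a. The input change was -1.01 for Mir27a, -0.29 for Mir27b, -0.78 for the chromosome 8 sum and -0.31 for the chromosome 13 sum, and the IP change 0.26 for Mir27a and -0.74 for Mir27b. With relative-log-expression factors and with DESeq2 the miR-27 sum had a difference of 0.015 in each, and Mir27b a proliferating IP over input of -0.0048 and -0.0050, and the first of these gave Mir27a an IP change of 0.75. Without a low-count filter the resting IP over input was 0.015 for Mir23b and 0.080 for the miR-27 sum, the proliferating one -0.092 for Mir27b, and the IP change 0.69 for Mir27a. With only the groups compared the resting IP over input was 0.16 for Mir23b and 0.10 for the miR-27 sum, the input change -0.68 for Mir27a and -0.46 for the chromosome 8 sum (both called), and the IP change of the chromosome 13 sum 0.052. The calls in the difference, 38, were 25 with relative-log-expression and 22 with upper-quartile factors. Their causes were not tested.

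Leaving out 1 library at a time gave, for resting IP over input, -0.28 to 0.21 (Mir23a), -0.36 to 0.29 (Mir23b), -0.11 to 0.26 (Mir27b), -0.15 to 0.31 (miR-23 sum), -0.21 to 0.058 (miR-27 sum) and -0.91 to -0.82 (chromosome 8 sum). For proliferating IP over input it gave -0.32 to 0.17 (Mir27b), -0.36 to 0.067 (miR-27 sum), 0.72 to 0.99 (chromosome 8 sum) and -0.17 to 0.26 (chromosome 13 sum). For the difference it gave 1.33 to 1.98 (Mir23b), 1.30 to 2.07 (Mir27a), -0.52 to 0.16 (Mir27b), 1.39 to 1.92 (miR-23 sum), -0.29 to 0.14 (miR-27 sum) and -0.42 to 0.061 (chromosome 13 sum). For input it gave -0.32 to 0.040 (Mir23a), -0.90 to -0.38 (Mir27a), -0.43 to 0.22 (Mir23b), -0.12 to 0.22 (Mir27b), -0.30 to 0.11 (miR-23 sum) and -0.032 to 0.16 (chromosome 13 sum), and for IP 0.67 to 1.21 (Mir27a), -0.48 to 0.044 (Mir27b), -0.38 to 0.043 (miR-27 sum) and -0.39 to 0.052 (chromosome 13 sum). The lone library left in a group is assumed to vary like the other groups. The calls were 31 to 65 in proliferating IP over input, lowest without proliferating IP replicate 2 and 35 without proliferating input replicate 1, and 15 to 49 in the difference, lowest without proliferating input replicate 1. Ratios moved by less than their replicate SD in all alternatives run.

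Whether same-numbered libraries stem from the same cells is not stated. For the 4 pairs of groups compared, the correlations of deviations over all tested features were -0.083, -0.048, 0.177 and -0.089. Such values average over all features, so they cannot decide it. In resting cells Mir223 and the erythroid markers took a larger share of replicate 2 than of replicate 1 in both IP and input. In proliferating cells the order of Mir223 was opposite between IP and input. The erythroid markers had 3 counts in each proliferating IP and 5 and 6 in the proliferating inputs, too few to order. With the replicate number as a block the calls were 62 in resting and 60 in proliferating IP over input, 40 in the difference, 100 in input and 109 in IP, and no call of a gene or sum changed.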
